A study of Homo sapiens with 6 samples.

Results

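The genes of autophagy and of the lysosome were followed through the knockdown of LINC01133 in 12Z cells. The 46 genes were chosen by symbol from the 60660 genes in the count files. They ranged from the kinases that start an autophagosome to the enzymes in the lysosomal lumen, and other genes of the pathway were counted apart. All 46 had enough reads to be tested, among 15155 genes tested in all.

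12Z is an immortal line of epithelial cells from endometriosis. The control group held 3 libraries from 12Z cells given a non-targeting control siRNA, and the knockdown group held 3 libraries from 12Z cells given siRNA LINC01133a, at 10 nM. Both groups went through the same lipid-based transfection and were lysed 72 h after it, and poly-A RNA was sequenced. The model was limited to 1 cell line and, in the RNA-sequencing, to 1 siRNA against LINC01133, and the paper describes the libraries as biological replicates. In bulk RNA of this kind, fewer cells of a type and less RNA per cell cannot be told apart.

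Macroautophagy is the route by which a cell wraps part of its own cytoplasm in a double membrane, the autophagosome, and delivers it to the lysosome to be degraded. The ULK kinases and a lipid kinase complex around Beclin 1 start the membrane, a conjugation machinery attaches small ubiquitin-like proteins of the ATG8 family to it, and receptors such as p62 tether the cargo. Many genes of the pathway and of the lysosome are transcriptional targets of TFEB, TFE3 and MITF, which are held in the cytoplasm when the kinase mTORC1 is active.

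The libraries held between 27742562 and 37551194 counts on genes, and the 46 genes together took 0.434% to 0.442% of them in each library. Normalised counts are counts scaled to a common library size. LINC01133, the targeted long noncoding RNA, had normalised counts of 813, 818 and 837 in control and 129.7, 131 and 138 in knockdown libraries (log2 fold change -2.63), so the labels and the target were in accord in all 6 libraries. Of 6 epithelial markers 5 fell, and their summed normalised counts were 199952 to 210812 in control and 127729 to 133727 in knockdown libraries, mostly keratins, with EPCAM near 0 (mean 13.6 and 16.9). Stromal markers were also abundant, 3 of 5 fell, and their sums were 100370.1 to 115881 and 97161 to 100528, mostly COL1A1. Of 3 endothelial markers 1 fell (KDR), with sums of 1511 to 1539.9 and 935 to 983. Of 4 immune cell markers 1 fell (CD14), with sums of 1617 to 1823 and 846 to 907. Among all genes tested, 25.0% fell. PECAM1, CLDN5, CD68 and CD3E were at or near 0 and were not tested. CD68 shares 1765 exon bases with another gene on its strand, where reads may not have been counted. Its low count does not show that it was absent. Of the epithelial markers, follow-up assays in the paper bore out the loss of CDH1 but not the reduction of KRT7 and KRT19. The part of these marker differences in the results below was not tested.

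In the knockdown cells, genes of the pathway changed in both directions and mostly by small amounts. At an adjusted p under 0.05, 15 of the 46 genes rose (32.6%, against 23.3% of all genes tested) and 12 fell (26.1%, against 25.0%). The other 19 did not pass the test. The median log2 fold change was -0.0023 over the 46 genes and 0.0032 over all genes tested. Fold changes past 1.5, which together with an adjusted p under 0.05 defined a differentially expressed (DE) gene, were found for 2 of the 46 (4.35%), against 11.7% of all genes. Both of these, DRAM1 and TFEB, were lower in knockdown cells, where 6.43% of all genes were DE in that direction. The values of control and knockdown libraries did not overlap for 29 of the 46 genes (63.0%), against 57.3% of all genes. In all genes, 48.3% of those past the adjusted p were higher in knockdown cells. Scaling by library size alone raised that share to 61.5% and the median of all genes to 0.065, and then 17 of the 46 genes rose and 9 fell.

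**Figure D1:**
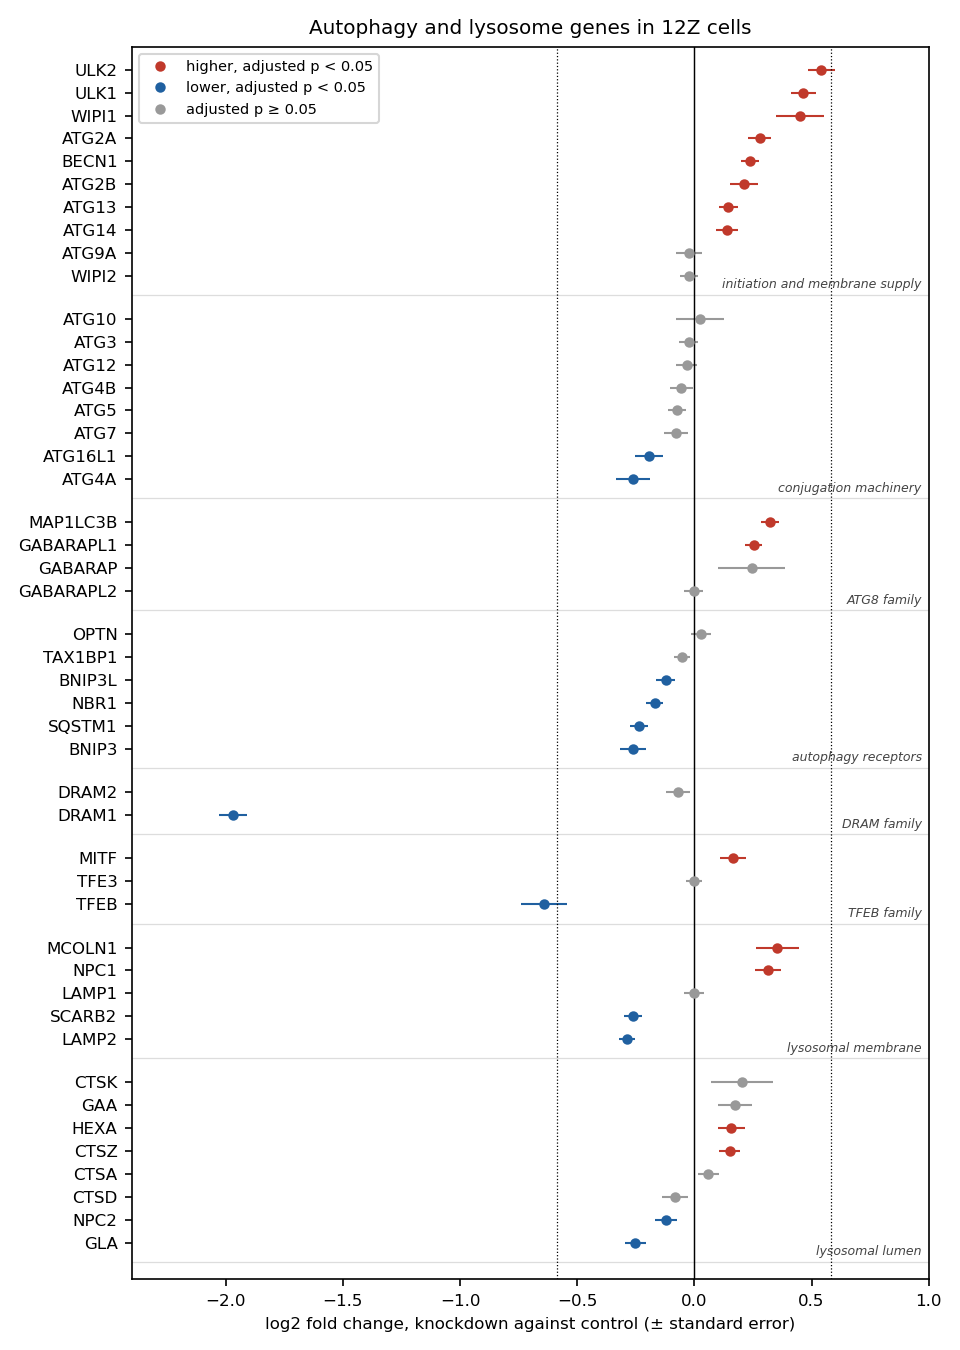
Log2 fold change (knockdown against control, x axis) of each of the 46 genes, grouped by role, with bars of 1 standard error over 3 libraries per group and dotted lines at a fold of 1.5. DRAM1 at -1.97 stood apart from all others, TFEB at -0.64 was the only other gene past a fold of 1.5, and genes of initiation and membrane supply lay mostly to the right of 0 and autophagy receptors to the left.

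The plot of fold changes by role follows the steps of the pathway. Over all genes tested, 23.3% rose and 25.0% fell. Among the 10 genes of initiation and membrane supply 8 rose (80%) and 0 fell, and the median log2 fold change was 0.22. The 8 genes of the conjugation machinery had a median of -0.066, with 2 that fell (25%). The ATG8 family had 2 of 4 that rose (50%, median 0.25). Of the 6 receptors 4 fell (66.7%) and 0 rose (median -0.15). The 13 lysosomal genes were evenly divided, with 4 that rose and 4 that fell (30.8% each, median 0.060). Whether these roles differed from each other was not tested, and all but the 2 DE genes moved by less than 1.5-fold.

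DRAM1 was by far the most changed of the 46 genes. It encodes a membrane protein of the lysosome that is known as a target of p53 and a promoter of autophagy, and it lies on the plus strand at chr12:101877580-102012130 (GRCh38). DRAM1 had normalised counts of 4096, 4221 and 3902 in control and 1039, 937 and 1149 in knockdown libraries. Every knockdown library lay far below every control library. In knockdown cells 25.5% of the control level was left (mean 4073 ± 161 in control and 1042 ± 106 in knockdown cells, SD, n = 3 each, log2 fold change -1.97, SE 0.061, adjusted p = 1.1e-10). The log2 fold change stayed between -2.04 and -1.90 under all 13 alternatives, DE in each. Its relative DRAM2, also a lysosomal membrane protein, did not pass the test (log2 fold change -0.070, adjusted p = 0.29).

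**Figure D2:**
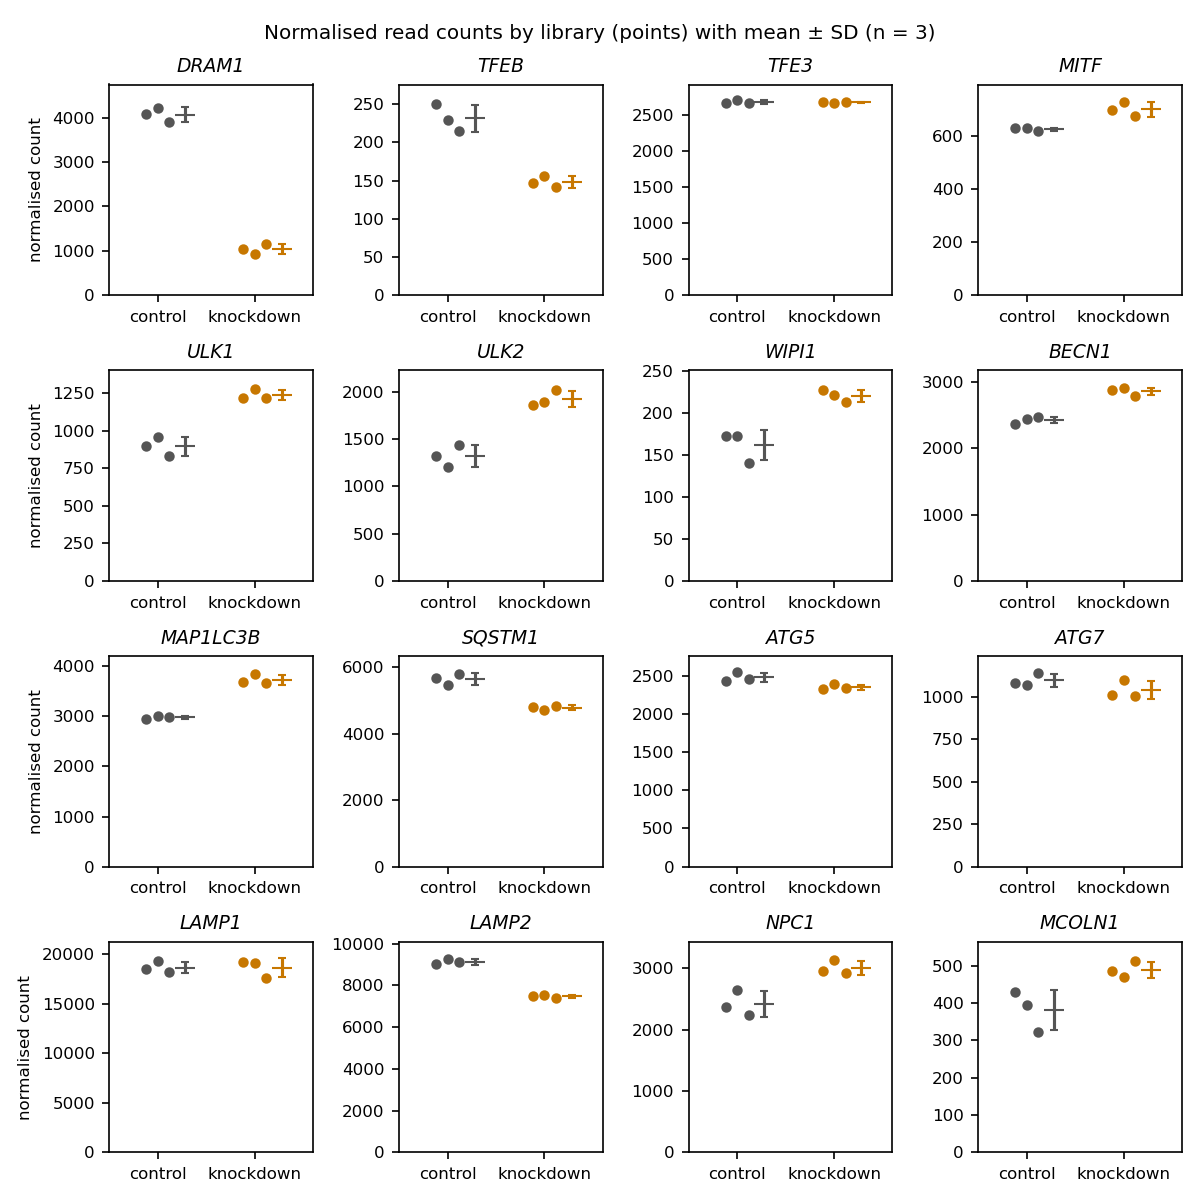
Normalised counts (y axis, from 0) of each control and knockdown library for 16 of the genes, points being libraries and the marks beside them the mean with its SD (n = 3 per group). DRAM1 fell from 4073 to 1042 without overlap, ULK2 rose from 1319.7 to 1925, and TFE3 and LAMP1 overlapped between groups.

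Since the knockdown used 1 siRNA, the transcripts of the 46 genes were searched for matches to its seed, the bases 2 to 8 by which an siRNA guide can also pair with other 3′ UTRs in the manner of a microRNA. The guide strand of siRNA LINC01133a is shown with the seed in capitals, and below it every match in the 3′ UTRs of the 46 genes, with the matching bases in capitals and 8 flanking bases on each side. A 7-base match reads AGAATGG, and an 8-base match adds a final A and so contains the 7-base word.
LINC01133a guide strand: uCCAUUCUcagguaacuuc
DRAM1, chr12:101922134-101922157, plus strand: agacaagaAGAATGGAgaaggggg
DRAM1, chr12:101923549-101923571, plus strand: tataatatAGAATGGgatttact
WIPI1, chr17:68421687-68421710, minus strand: aaggcggaAGAATGGAgtgcaatt
ATG2B, chr14:96279970-96279992, minus strand: aaaatctcAGAATGGggctaaag
NBR1, chr17:43211647-43211669, plus strand: ccacctaaAGAATGGtgaaataa
ATG7, chr3:11556166-11556188, plus strand: ggccacagAGAATGGtatattac

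DRAM1, the most reduced gene, was the only one of the 46 with 2 such matches, of which the 8-base match begins 882 bases after the stop codon. The other 8-base match was in WIPI1, which rose. Of the genes with a 7-base match alone, ATG2B rose, NBR1 fell and ATG7 did not pass the test, and no match was found in TFEB. In all, 5 of the 45 genes with an annotated 3′ UTR held a 7-base match (11.1%), against 17.1% of 12535 tested genes, and 2 held an 8-base match (4.44%), against 5.78%. Matches numbered 0.0771 per kb of 3′ UTR in these genes and 0.104 in all genes. Over all genes, they numbered 0.130 per kb in those that fell, 0.0850 in those that rose and 0.0942 in those not past the test. Within the 45 genes the values were 0.147 (with the 2 matches of DRAM1), 0.0636 and 0.0385. Over all genes, the median log2 fold change was -0.15 with an 8-base match, -0.062 with a 7-base match alone and 0.0014 with none. These groups also differed in 3′ UTR length, with medians of 3480.5, 3244 and 1098 bases. The part of length in these fold changes was not tested. A match is a run of letters and not a shown binding site, and its part in the level of DRAM1 was not tested.

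**Figure D3:**
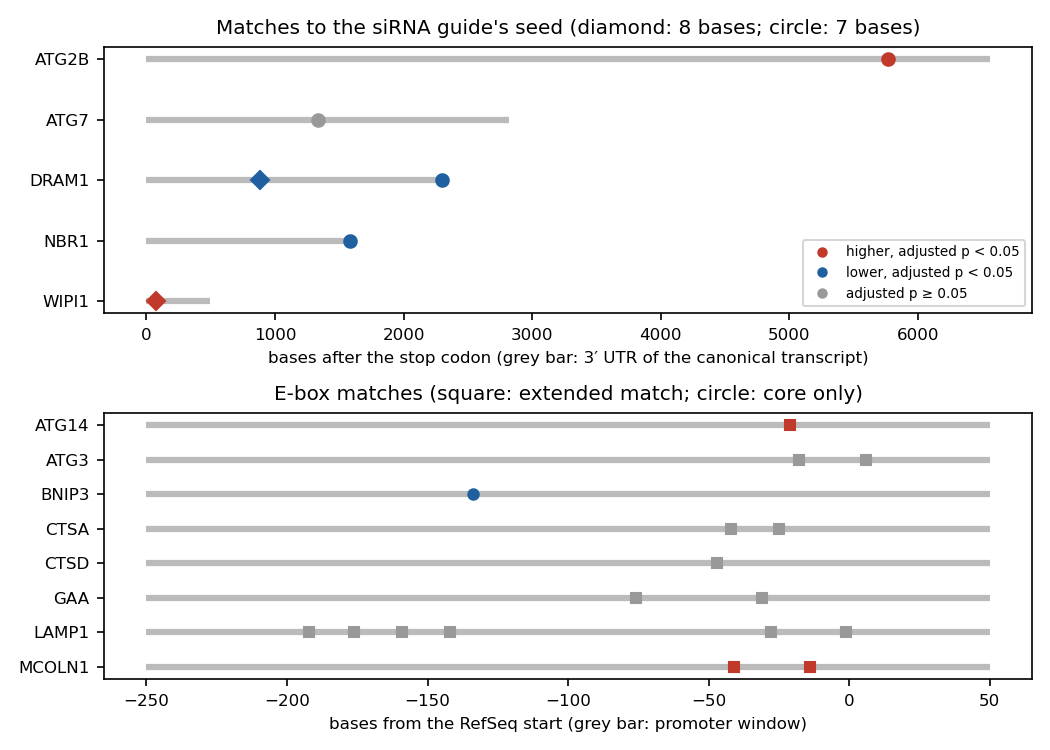
Positions of matches to the siRNA seed along the 3′ UTR (top, bases after the stop codon) and of E-boxes along the promoter (bottom, bases from the RefSeq start), with marker colour giving the direction of change of the gene. DRAM1 held 2 seed matches and was lower, WIPI1 held 1 and was higher, and LAMP1 held 6 E-boxes and did not pass the test.

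TFEB fell, while the other genes of its family did not. TFEB, TFE3 and MITF are related leucine zipper factors that bind E-boxes in promoters of lysosomal genes. TFEB, on the minus strand at chr6:41683978-41736259, had normalised counts of 249.9, 229 and 216 in control and 147, 156 and 142 in knockdown libraries, without overlap. The knockdown level was 64.1% of the control level (mean 231 ± 17.3 in control and 148 ± 7.40 in knockdown cells, SD, n = 3 each, log2 fold change -0.64, SE 0.10, adjusted p = 1.5e-04). TFEB passed the adjusted p under all 13 alternatives and was DE in 11 of them. Its log2 fold change was -0.58, just short of the fold cutoff, without control replicate 1 and with library size alone.

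TFE3 had normalised counts of 2664, 2706 and 2675 in control and 2685, 2668 and 2683 in knockdown libraries, and its groups overlapped (log2 fold change -0.0012, SE 0.036, adjusted p = 0.98). MITF had normalised counts of 628, 627 and 617 in control and 695, 728 and 674 in knockdown libraries, slightly higher in each knockdown library than in any control library. The rise of MITF was small (mean 624 ± 6.31 in control and 699 ± 27.4 in knockdown cells, SD, n = 3 each, log2 fold change 0.17, SE 0.055, adjusted p = 0.025), and it passed the test in 8 of 13 alternatives. Its adjusted p was 0.054 with no filter on low counts, 0.099 with DESeq2, 0.055 without control replicate 3, 0.060 without knockdown replicate 1 and 0.11 without knockdown replicate 2. In normalised counts per kb of transcript (mean ± SD, n = 3), TFE3 was the most abundant of the family in control cells (815 ± 6.61), followed by MITF (130 ± 1.32) and TFEB (99.2 ± 7.43), and TFEB was at 63.6 ± 3.17 in knockdown cells.

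E-boxes were then counted in the promoters of the 46 genes, since these are the letters that the TFEB family is known to read. RefSeq promoter windows (GRCh38.p14, 250 bases before to 50 after the start) were found for 42 of the genes, with 54 windows. The core E-box CACGTG, its own reverse complement, was in 8 of the 54 windows (14.8%), against 9.12% of 15828 windows of all tested genes. The extended word GTCACGTG, searched on both strands and containing the core, was in 7 of 54 (13.0%), against 3.78%. Some windows are shown, with the extended word in capitals, for a gene that rose (MCOLN1) and for genes that did not pass the test (GAA and LAMP1).
MCOLN1, chr19:7522572-7522599, plus strand: ccagaggcgGTCACGTGaggggctctgg
MCOLN1, chr19:7522599-7522626, plus strand: ggctaccggGTCACGTGACcgaggcaca
GAA, chr17:80101494-80101521, plus strand: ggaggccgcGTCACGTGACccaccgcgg
GAA, chr17:80101539-80101566, plus strand: ctcccgccgGTCACGTGACccgcctctg
LAMP1, chr13:113297036-113297063, plus strand: ccaggccggGTCACGTGggtccagggtc

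Where the capitals run on to GTCACGTGAC, the word was matched on both strands. Of the 7 genes that held it, 2 rose (MCOLN1 and ATG14), 0 fell, and 5 did not pass the test (LAMP1, CTSA, CTSD, GAA and ATG3). For comparison, 23.3% of all genes tested rose and 25.0% fell. Genes without a window were not searched. These were BNIP3L and LAMP2, which fell, HEXA, which rose, and CTSK, which did not pass the test. BNIP3, which fell, held only the core.

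Among the genes that start the autophagosome, the kinases ULK1 and ULK2, which receive signals from mTORC1 and AMPK, rose the most. ULK2 had normalised counts of 1326, 1201 and 1432 in control and 1857, 1895 and 2022 in knockdown libraries (mean 1319.7 ± 116 in control and 1925 ± 86.1 in knockdown cells, SD, n = 3 each, log2 fold change 0.54, SE 0.059, adjusted p = 6.7e-06). All knockdown libraries were above all control libraries. ULK2 was close to the fold cutoff and passed it, at a log2 fold change of 0.60, without control replicate 3 and with library size alone. ULK1 had normalised counts of 899, 955 and 832 in control and 1215, 1276 and 1216 in knockdown libraries, also without overlap (mean 896 ± 61.6 in control and 1236 ± 34.9 in knockdown cells, SD, n = 3 each, log2 fold change 0.47, SE 0.055, adjusted p = 1.4e-05). ATG13, the scaffold of the ULK complex, rose by 0.14 on the log2 scale (adjusted p = 0.0090).

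BECN1, which encodes Beclin 1, a core subunit of the lipid kinase complex, had normalised counts of 2365, 2441 and 2463 in control and 2870.2, 2901 and 2789.8 in knockdown libraries. These groups did not overlap (mean 2423 ± 51.7 in control and 2854 ± 57.2 in knockdown cells, SD, n = 3 each, log2 fold change 0.24, SE 0.038, adjusted p = 2.0e-04). ATG14, the subunit that directs that complex to autophagosomes, rose by 0.14 on the log2 scale (adjusted p = 0.024), a call that was lost with an adjusted p of 0.077 with DESeq2, 0.089 without control replicate 3 and 0.10 without knockdown replicate 1.

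WIPI1, which binds the lipid made by that kinase, had normalised counts of 172, 172 and 141 in control and 228, 221 and 213 in knockdown libraries. It rose without overlap from a low level (mean 162 ± 18.1 in control and 221 ± 7.38 in knockdown cells, SD, n = 3 each, log2 fold change 0.45, SE 0.10, adjusted p = 0.0028). Its relative WIPI2 was at a log2 difference of -0.024 (adjusted p = 0.64). The lipid transfer proteins ATG2A and ATG2B, which feed the growing membrane, rose by 0.28 (adjusted p = 3.7e-04) and 0.21 (adjusted p = 0.0090) on the log2 scale. ATG9A, the membrane protein of the vesicles that seed the autophagosome, was at a log2 difference of -0.023 (adjusted p = 0.75). However, ATG9A shares 1833 exon bases with another gene on the same strand, and reads there may not have been counted for it.

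Of the 8 conjugation genes, 0 rose and 2 fell (25%, against 25.0% of all genes). ATG5, which forms with ATG12 and ATG16L1 the complex that attaches ATG8 proteins to lipid, had normalised counts of 2435, 2544 and 2456 in control and 2328, 2389 and 2341 in knockdown libraries. The groups did not overlap, but the difference did not pass the test (mean 2478 ± 57.7 in control and 2352 ± 32.2 in knockdown cells, SD, n = 3 each, log2 fold change -0.075, SE 0.038, adjusted p = 0.12). ATG7, the activating enzyme of both conjugation reactions, had normalised counts of 1083, 1068 and 1141 in control and 1014, 1101 and 1005 in knockdown libraries, with overlap between groups (mean 1097 ± 38.6 in control and 1040.1 ± 53.1 in knockdown cells, SD, n = 3 each, log2 fold change -0.077, SE 0.052, adjusted p = 0.24). The protease ATG4A, which trims ATG8 proteins, fell by 0.26 on the log2 scale (adjusted p = 0.0087). ATG16L1 was at a log2 difference of -0.19 (adjusted p = 0.016), a fall that was lost with an adjusted p of 0.077 with library size alone and 0.078 without knockdown replicate 3. The rest did not pass the test, with log2 fold changes of ATG3 at -0.025, ATG4B at -0.056, ATG10 at 0.025 and ATG12 at -0.033. ATG10 shares 374 exon bases with RPS23 on the opposite strand, and 98.6% of the stranded counts at ATG10 in control cells lay on that strand, so that its value depends on the strand-specific column. At ATG7, which overlaps VGLL4, that share was 41.7%.

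The ATG8 family, whose lipid-bound proteins mark the autophagosome, was higher for 2 of its 4 members. MAP1LC3B, which encodes the widely used marker LC3B, had normalised counts of 2949.8, 3004 and 2993 in control and 3683, 3845 and 3657 in knockdown libraries. It rose without overlap (mean 2982 ± 28.8 in control and 3728 ± 102 in knockdown cells, SD, n = 3 each, log2 fold change 0.32, SE 0.037, adjusted p = 1.2e-05). GABARAPL1 had normalised counts of 3151, 3218 and 3271 in control and 3787, 3905 and 3794 in knockdown libraries and rose likewise (mean 3213 ± 59.7 in control and 3828 ± 66.1 in knockdown cells, SD, n = 3 each, log2 fold change 0.25, SE 0.036, adjusted p = 7.9e-05). GABARAPL2 overlapped between groups, at a log2 difference of -0.0034 (adjusted p = 0.95). GABARAP had normalised counts of 61.5, 68.7 and 59.1 in control and 78.8, 70.9 and 73.7 in knockdown libraries, and a log2 difference of 0.25 (adjusted p = 0.18) did not pass the test at this low count. On 691 exon bases GABARAP shares the strand with another gene, and reads there may not have been counted. Near-identical copies of MAP1LC3B and GABARAPL1 exist elsewhere in the genome, and reads that mapped to more than 1 place were left out.

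The plot of levels per kb gave the order within the family. In control cells GABARAPL2 was at 2193 ± 47.9, GABARAPL1 at 1707 ± 31.7 and MAP1LC3B at 1389 ± 13.4 normalised counts per kb (mean ± SD, n = 3). In knockdown cells GABARAPL2 stood at 2188 ± 76.1, GABARAPL1 at 2033 ± 35.1 and MAP1LC3B at 1737 ± 47.6, so that the order was kept and the gaps were smaller. Over all 46 genes, LAMP1 had the highest level per kb in control cells (6902 ± 221), ahead of BNIP3 (3860.3 ± 195) and BNIP3L (3435 ± 148). The lowest were ATG10 (59.5 ± 3.58) and GABARAP (47.8 ± 3.80), both of which overlap other genes as described. DRAM1 went from 1242 ± 49.1 to 318 ± 32.4 per kb, from a level near that of MAP1LC3B to one far below it.

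**Figure D4:**
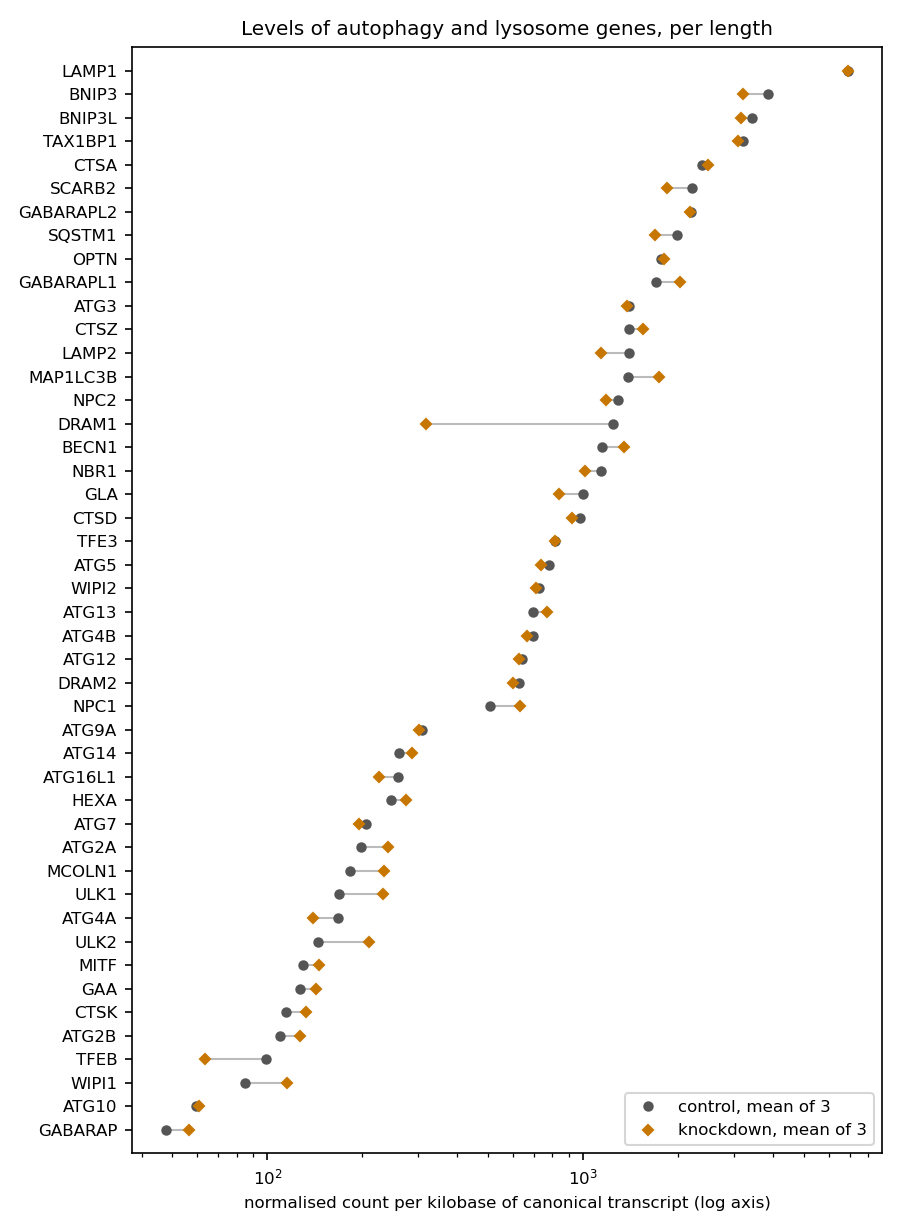
Normalised counts per kb of canonical transcript (log axis) of the 46 genes in control and knockdown cells, as means over 3 libraries per group. LAMP1 was highest at 6902 in control cells and GABARAP lowest, and DRAM1 was the gene whose points lay farthest apart.

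Autophagy receptors fell or did not pass the test. SQSTM1 encodes p62, which binds ubiquitinated cargo and is itself degraded by autophagy. It had normalised counts of 5669, 5457 and 5805 in control and 4821, 4712 and 4847 in knockdown libraries. All knockdown libraries were lower (mean 5644 ± 176 in control and 4793 ± 71.7 in knockdown cells, SD, n = 3 each, log2 fold change -0.24, SE 0.037, adjusted p = 1.7e-04). NBR1, a receptor of similar build, fell by 0.17 on the log2 scale (adjusted p = 0.0014), and BNIP3, a mitophagy receptor induced by hypoxia, by 0.26 (adjusted p = 0.0015). Its relative BNIP3L was at a log2 difference of -0.12 (adjusted p = 0.021), and that call was lost with an adjusted p of 0.20 with library size alone, 0.058 without control replicate 3, 0.11 without knockdown replicate 1 and 0.069 without knockdown replicate 3. OPTN, at a log2 difference of 0.028 (adjusted p = 0.60), and TAX1BP1, at a log2 difference of -0.053 (adjusted p = 0.23), which take part in the clearance of bacteria, mitochondria and aggregates, did not pass the test.

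The lysosomal membrane genes moved both ways. LAMP2, one of the most abundant glycoproteins of that membrane, had normalised counts of 9006, 9252 and 9101 in control and 7494, 7529 and 7404 in knockdown libraries. It fell without overlap (mean 9119.6 ± 124 in control and 7476 ± 64.4 in knockdown cells, SD, n = 3 each, log2 fold change -0.29, SE 0.034, adjusted p = 1.4e-05). LAMP1, its close relative, had normalised counts of 18462, 19308 and 18154 in control and 19247, 19095 and 17557 in knockdown libraries, and its groups overlapped (mean 18641 ± 597 in control and 18633 ± 935 in knockdown cells, SD, n = 3 each, log2 fold change -4.1e-04, SE 0.042, adjusted p = 0.99). SCARB2, the receptor that carries glucocerebrosidase to the lysosome, fell by 0.26 on the log2 scale (adjusted p = 9.8e-05).

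NPC1, which exports cholesterol from the lysosome, had normalised counts of 2371, 2647 and 2234 in control and 2956, 3131 and 2920.3 in knockdown libraries. The groups did not overlap (mean 2418 ± 210.3 in control and 3002 ± 113 in knockdown cells, SD, n = 3 each, log2 fold change 0.31, SE 0.056, adjusted p = 4.3e-04). The calcium channel MCOLN1, also called TRPML1, had normalised counts of 429, 394 and 323 in control and 485, 471 and 513 in knockdown libraries. It rose as well (mean 382 ± 53.8 in control and 489.5 ± 21.3 in knockdown cells, SD, n = 3 each, log2 fold change 0.35, SE 0.092, adjusted p = 0.0061). Reads on 169 exon bases that MCOLN1 shares with another gene on its strand may not have been counted.

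In the lysosomal lumen 2 of 8 genes rose (25%, against 23.3% of all genes) and 2 fell (25%, against 25.0%), each by less than 1.5-fold. GLA, which removes galactose from glycolipids, fell by 0.25 on the log2 scale (adjusted p = 4.7e-04). The cathepsin CTSZ was at a log2 difference of 0.15 (adjusted p = 0.016), a rise lost with an adjusted p of 0.056 without control replicate 3, 0.075 without knockdown replicate 1 and 0.079 without knockdown replicate 2. HEXA, the alpha subunit of the enzyme that degrades GM2 ganglioside, was at a log2 difference of 0.16 (adjusted p = 0.036). Its groups overlapped and the call was lost with an adjusted p of 0.067 with DESeq2, 0.11 with the unstranded counts, 0.14 without control replicate 1, 0.064 without control replicate 3, 0.066 without knockdown replicate 2 and 0.14 without knockdown replicate 3. NPC2, which hands cholesterol to NPC1, was at a log2 difference of -0.12 (adjusted p = 0.043) and passed the test in 3 of 13 alternatives, its adjusted p being 0.32 with library size alone, 0.13 with no filter on low counts, 0.13 with DESeq2, 0.053 with the replicate block, 0.093 without control replicate 1, 0.056 without control replicate 2, 0.067 without control replicate 3, 0.068 without knockdown replicate 1, 0.15 without knockdown replicate 2 and 0.11 without knockdown replicate 3.

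The other lumenal genes did not pass the test, although each passed under an alternative that is given with its adjusted p. GAA, which degrades glycogen in the lysosome, was at a log2 difference of 0.17 (adjusted p = 0.061), and it passed with an adjusted p of 0.019 with library size alone and 0.027 without control replicate 3. The carboxypeptidase CTSA was at a log2 difference of 0.060 (adjusted p = 0.29) and passed with an adjusted p of 0.041 with library size alone and 0.028 without control replicate 1. The aspartic protease CTSD was at a log2 difference of -0.082 (adjusted p = 0.23) and passed with an adjusted p of 0.020 without control replicate 3. CTSK, a collagen-degrading cathepsin, was at a log2 difference of 0.20 (adjusted p = 0.23) and passed with an adjusted p of 0.037 without control replicate 3. Thus library size alone gave 4 that rose and 1 that fell among these 8 genes, against 2 and 2. Exon bases shared with a same-strand gene, on which reads may not have been counted, numbered 1304 in CTSD and 617 in HEXA.

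Further genes of the same pathways were counted for comparison. Of 38 other autophagy genes tested, 15 rose (39.5%, against 23.3% of all genes) and 9 fell (23.7%, against 25.0%, median log2 fold change 0.054), and 5 were DE (13.2%, against 11.7% of all genes). These were TP53INP2 at a log2 difference of 1.13 (adjusted p = 1.7e-09), a nuclear protein that moves to autophagosomes, MAP1LC3A at a log2 difference of 0.88 (adjusted p = 2.9e-06), a second LC3 gene, the ATG8 protease ATG4D at a log2 difference of 0.76 (adjusted p = 6.1e-07), ATG16L2, a relative of ATG16L1, at a log2 difference of 0.69 (adjusted p = 8.5e-04), and the ER-phagy receptor RETREG1 at a log2 difference of -0.71 (adjusted p = 2.2e-05).

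Of 47 other lysosomal enzymes and membrane proteins, 15 rose (31.9%, against 23.3% of all genes) and 13 fell (27.7%, against 25.0%). Their median log2 fold change was 0.078, and the counts became 21 and 7 with library size alone. The 4 DE genes (8.51%, against 11.7% of all genes) were IDUA at a log2 difference of 0.93 (adjusted p = 8.2e-05) and GUSB at a log2 difference of 0.60 (adjusted p = 7.4e-07), which degrade glycosaminoglycans, TMEM175, an ion channel of the lysosomal membrane, at a log2 difference of 0.67 (adjusted p = 2.6e-05), and the cathepsin CTSH at a log2 difference of -0.64 (adjusted p = 0.0065).

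Of 15 subunits of the V-ATPase, the pump that acidifies the lysosome, 2 rose (13.3%, against 23.3% of all genes) and 4 fell (26.7%, against 25.0%). The 1 DE subunit (6.67%, against 11.7%) was ATP6V1D, with normalised counts of 1331, 1337 and 1315 in control and 2482, 2641 and 2405 in knockdown libraries (log2 fold change 0.92, SE 0.044, adjusted p = 4.8e-09). ATP6V1A, the catalytic subunit of the same soluble part, fell (log2 fold change -0.47, SE 0.039, adjusted p = 6.1e-07). It was named after its value was seen. Without control replicate 3, without any 1 knockdown replicate, with no filter on low counts or with DESeq2 only 1 subunit rose, and with library size alone 2 fell. Subunits of 1 complex thus changed in opposite directions.

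Of 28 genes of mTORC1 and lysosomal nutrient signalling, 9 rose (32.1%, against 23.3% of all genes) and 4 fell (14.3%, against 25.0%). Their median log2 fold change was 0.030, and 4 were DE (14.3%, against 11.7% of all genes). The sestrins, stress-induced inhibitors of mTORC1, moved apart. SESN2 had normalised counts of 176, 145 and 159 in control and 337, 339.9 and 287 in knockdown libraries (log2 fold change 1.00, SE 0.10, adjusted p = 4.2e-06). SESN1 had normalised counts of 456, 493 and 509 in control and 250.1, 243 and 309.7 in knockdown libraries (log2 fold change -0.87, SE 0.093, adjusted p = 5.7e-06). Subunits of AMPK, the kinase that senses low energy and activates ULK1, also differed. The catalytic PRKAA1 was at a log2 difference of 0.74 (adjusted p = 5.1e-09) and the regulatory PRKAG1 at a log2 difference of -0.65 (adjusted p = 5.3e-07). Reads on 2061 exon bases that PRKAG1 shares with another gene on its strand may not have been counted for it.

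**Figure D5:**
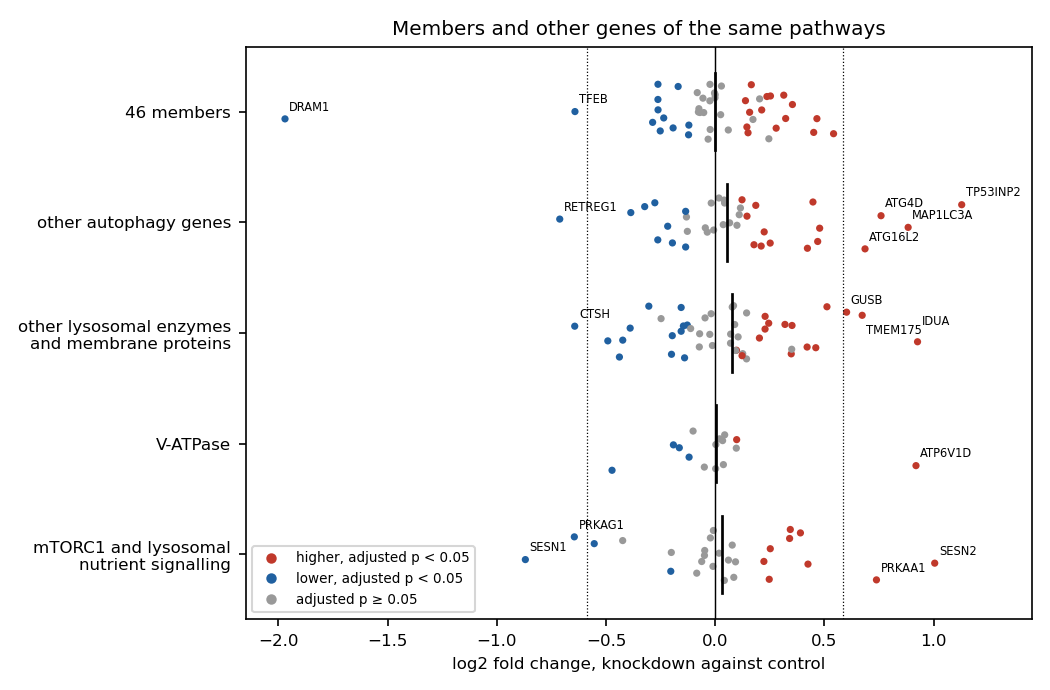
Log2 fold change (x axis) of the 46 genes and of 4 further lists of the same pathways, each point being a gene, the short bar the median of the list and dotted lines a fold of 1.5. Medians lay between -0.0023 and 0.078, and the DE genes are named.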

How the data were processed

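Poly-A RNA of 12Z cells was sequenced in 6 libraries, 3 control and 3 knockdown, multiplexed on 1 lane. The authors aligned the reads with STAR 2.7.6a to GRCh38.p13 with GENCODE annotation, left out reads that mapped to more than 1 place, and deposited raw, unnormalised counts of read pairs per gene. The deposited files hold 1 unstranded and 2 stranded columns. Column 4, which held 93.9% to 94.1% of the stranded counts, was used because the text does not name the column that the authors used. Reads on no gene (4.38% to 5.22% of those assigned or not) or on several genes (3.88% to 4.23%) stayed out of library sizes and tests. The paper names a TruSeq kit, while the labels name a NEB poly-A library.

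Genes were kept by filterByExpr with a minimum count of 10. Counts were scaled by TMM factors, and the groups were compared in edgeR 4.0.16 under R 4.3.3 by its quasi-likelihood test, with no term but the group, and p-values were adjusted by the Benjamini-Hochberg method over 15155 genes. The standard error (SE) of a log2 fold change was its size divided by the square root of F. DE genes had a fold over 1.5 and an adjusted p under 0.05. Tested on simulated data for this comparison (14991 genes tested), edgeR recovered 191 of 200 changed genes and called 15 unchanged ones. Recovery there meant an adjusted p under 0.05 in the right direction. The changed genes had folds of 1.5 or more, so recovery of smaller changes was not tested.

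Per-library values were given for DE genes, for genes past the adjusted p with an absolute log2 fold change of at least 0.3, and for 10 genes set by name, and GABARAPL1 and GABARAP were added after their values were seen. Of each further list the DE genes were named. The 46 genes, the lists and the tests were chosen with earlier results of these data known. Levels per kb, overlaps between genes and 3′ UTRs came from GENCODE v44 canonical transcripts on GRCh38, and promoters from RefSeq. The authors counted reads with another GENCODE version, and whether it held each overlapping gene was not checked. Alternatives were median-of-ratios factors, library size alone, no filter, at least 10 counts in every library, DESeq2 1.42.0, unstranded counts, the replicate number as a block, and each library left out in turn. Precision rests on 3 libraries per group. The p-values set the difference between groups against the spread between these libraries, which was estimated with information from all genes tested.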

Additional observations from a re-analysis of the deposited data

How the results depend on the processing

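Each of the 46 log2 fold changes was recomputed under 13 alternatives. Of these 598 values, 559 kept their side of the adjusted p, 33 no longer passed and 6 newly passed. The sign changed in 32 values, from 11 genes, among them TFE3 and LAMP1, and in 0 of these did the gene pass the test in either fit. DE genes among the 46 numbered 2 throughout, except when a library was left out, where the count ranged from 1 to 3. It was 1 without control replicate 1 (TFEB lost) and 3 without control replicate 3 (ULK2 added). With library size alone the count was also 2, but ULK2 took the place of TFEB. Over all genes, DE genes numbered 1778, between 1446 with DESeq2 and 1963 with no filter. Between 12 and 17 of the 46 genes rose and between 9 and 12 fell under the alternatives.

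Replicate numbers did not pair the libraries. Deviations from the group means of equally numbered libraries had correlations of -0.015, 0.0049 and 0.057, and control replicate 2 correlated better with knockdown replicate 1 (0.071). With the replicate block, 15 of the 46 genes rose, 11 fell (NPC2 lost) and 2 were DE, and 1747 genes were DE in all. Among the 46 genes, raw counts were lowest for GABARAP, ATG10, TFEB and WIPI1, where depth limits the precision most.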
